A study of Ovis aries with 16 samples.

Results

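PPM1K (ENSOARG00000001626) was 1 of the 25197 genes counted in the testes of 16 adult male sheep. It was chosen for its difference between diets in these same libraries, so its levels by diet are given as a description with no test. Its identifier came from the symbols that the study listed, which name 1763 of the identifiers. Merino sheep housed in individual pens received for 65 days either a high diet meant to raise live weight by 10% (8 sheep, called well-fed here) or a low diet meant to lower it by 10% (8 sheep, called underfed). Both groups ate the same kinds of feed in different amounts, and every library came from 1 sheep, with tissue mixed from the top, middle and bottom of the right testis. All p-values therefore measure the spread between sheep of this 1 experiment. The samples are whole testis, so fewer cells of a type and less RNA per cell cannot be told apart.

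PPM1K encodes a protein phosphatase of the metal-dependent PP2C family that lies in the mitochondrial matrix. It removes phosphate from the branched-chain ketoacid dehydrogenase complex (BCKDH), which commits the carbon of leucine, isoleucine and valine to breakdown. The kinase BCKDK adds that phosphate and switches the complex off, and PPM1K switches it back on. The activity of the complex is regulated largely through this phosphate, and the amount of PPM1K transcript is a separate quantity that does not measure it.

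The PPM1K transcript was more abundant in the testes of underfed sheep, and the levels of the groups did not overlap. Levels are given in CPM, the reads on the gene scaled to a common total of reads counted on all genes of the library. In well-fed sheep the lowest level was 7.62 CPM, the median 9.82 CPM and the highest 14.0 CPM. In underfed sheep the lowest was 15.4 CPM, the median 30.2 CPM and the highest 43.6 CPM. Every underfed sheep was thus above every well-fed sheep, but the gap was narrow, with the lowest underfed level 1.09 times the highest well-fed level. Those neighbours were low diet replicate 1, with a counting interval (Wilson, 95%) of 13.2 to 17.8 CPM, and high diet replicate 4, with an interval of 12.1 to 16.3 CPM. The intervals overlap, so at this depth the order of these 2 sheep was not resolved. Of all genes tested, 0.466% had every underfed sheep above every well-fed sheep, a share from which nothing is read for PPM1K because the gene was chosen on this contrast.

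**Figure D1:**
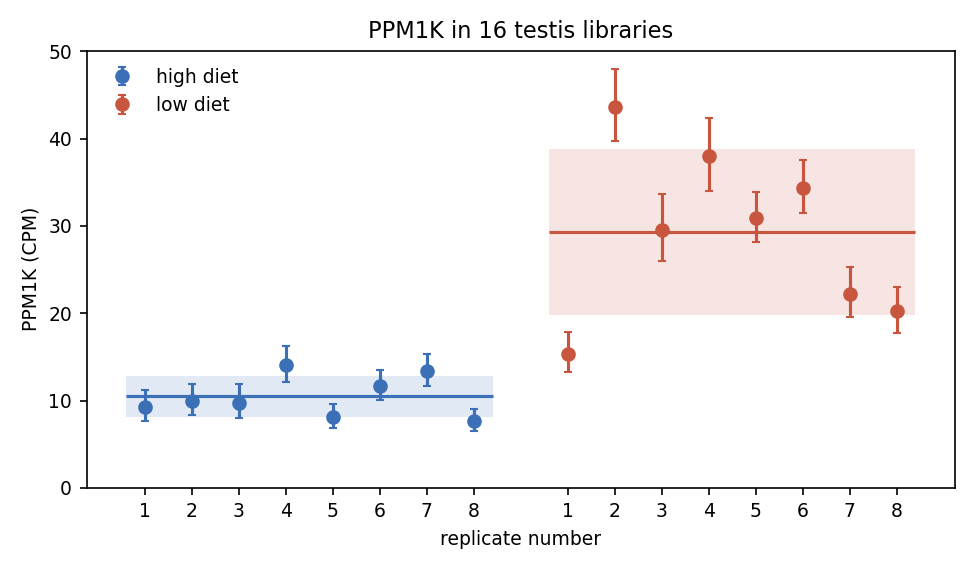
PPM1K level in each of the 16 libraries by diet, in CPM, with the mean and SD of each diet. The well-fed sheep lie between 7.62 and 14.0 CPM and the underfed sheep between 15.4 and 43.6 CPM, with low diet replicate 1 nearest to the well-fed sheep.

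The mean level was 10.5 ± 2.34 CPM (SD, n = 8) in well-fed and 29.3 ± 9.53 CPM (SD, n = 8) in underfed sheep, a ratio of 2.80. The libraries differ in composition, so levels were also divided by TMM factors, which rescale each library so that most genes keep the same level. On this scale the means were 10.995 ± 1.87 and 27.3 ± 7.90 (SD, n = 8 each) and their ratio 2.48. The TMM factors ran from 0.739 in high diet replicate 8 to 1.13 in low diet replicate 3. The log2 difference, underfed minus well-fed, was 1.20 with a standard error of 0.19 on the scale log2(CPM divided by the TMM factor + 1), where the added 1 slightly understates the change of low genes. Scaling by library totals alone gave 1.36, and it also moved the median difference of all tested genes from 0.01 to 0.17. Leaving out each sheep in turn kept the difference between 1.12 and 1.29.

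The spread between sheep was wider in the underfed group, a difference that was not tested. The highest CPM was 1.84 times the lowest in well-fed sheep and 2.84 times the lowest in underfed sheep, and the coefficients of variation were 22.3% and 32.5%. PPM1K is a low to moderate transcript here, with 93 to 208 reads in well-fed and 175 to 505 reads in underfed libraries. Counting alone gives a coefficient of variation of 6.93% to 10.4% in the well-fed and 4.45% to 7.56% in the underfed libraries, below the spread between sheep in both diets. These figures and the intervals cover counting error only.

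Library totals ran from 7646547 to 18230076 reads. No 2 libraries of a diet were alike within sampling noise. A gene was tested where its CPM exceeded 5 in 8 or more libraries, which left 11148 genes. They were compared with limma, which fits a linear model to every gene and shares the estimate of spread among them. A gene was called at an adjusted p under 0.1 (Benjamini-Hochberg over all tested genes) together with a ratio of mean CPM above 1.5. By this rule 1204 genes (10.8%) were expressed more and 604 (5.42%) less in underfed sheep. At the adjusted p alone, without the ratio, 1215 genes were higher and 1181 lower. Of the tested genes with a symbol, which come from the study's own lists of differing genes, 76.7% were called and 49.7% were called higher, against 4.86% called of those without one.

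PPM1K was next set against testis weight within diets, which the choice of the gene did not use. With the mean of each diet removed, sheep with lighter testes tended to have higher PPM1K, but the relation did not pass at an adjusted p under 0.05, the threshold for the 18 trait relations tested. Over 16 sheep Pearson's r was -0.62 (two-sided permutation test within diets, p = 0.025, adjusted p = 0.18) and Spearman's rho -0.54 (permutation p = 0.046, adjusted p = 0.33). With the 2 sheep of most extreme testis weight left out, r was -0.65 (n = 14). Extreme here means the largest distance from the median. Within diets, r was -0.48 in well-fed sheep (exact permutation p = 0.22, adjusted p = 0.50, n = 8) and -0.67 in underfed sheep (exact permutation p = 0.068, adjusted p = 0.30, n = 8). In underfed sheep it was -0.32 with the 2 most extreme sheep left out (n = 6), so there the relation rested on those sheep.

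The individual sheep followed this only in part, here on the scale that was tested, as log2 deviations from the mean of the diet. Low diet replicate 2 had the highest PPM1K deviation of its diet (0.57) and a testis weight that differed by -77 g from the mean. Low diet replicate 1 had the lowest (-0.74) with a weight 56.8 g above the mean, and replicate 8, whose weight was 157.8 g above it, the next lowest (-0.36). Others did not follow. Low diet replicate 3 had a weight that differed by -67.8 g and a PPM1K deviation of -0.0013, and replicate 4 one of 0.36 at -0.7 g. Among well-fed sheep, replicate 7 had a deviation of 0.27 at a weight that differed by -65.4 g, whereas replicate 8, the heaviest of its diet at 62.4 g above the mean, was only slightly below the mean in PPM1K (-0.07). High diet replicate 4 had the highest PPM1K deviation of its diet (0.34) at -3.15 g.

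**Figure D2:**
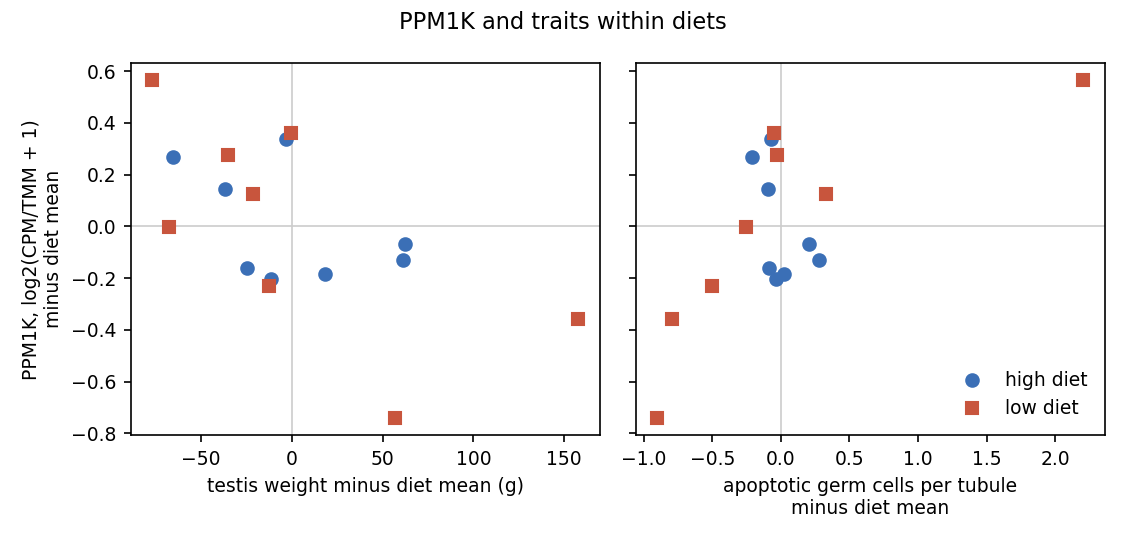
PPM1K as log2(CPM divided by the TMM factor + 1) against testis weight and against apoptotic germ cells per tubule, each as a deviation from the mean of the diet, with 1 point for each of the 16 sheep coloured by diet. Testis weight gave r = -0.62 over all sheep, and apoptotic germ cells gave r = 0.79 in underfed and r = -0.52 in well-fed sheep.

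Fitted over all genes with diet as a term, the slope of PPM1K on testis weight was -0.34 on the log2 scale for each 100 g (standard error 0.14), and it did not pass (limma, adjusted p = 1.00). It ranked 561 of 11148 from the most negative, and the median slope of all genes was 0.02. Only 1 gene (0.00897%) had a slope that passed, and 267 had an unadjusted p under 0.05. That gene was MVP (ENSOARG00000005356), which encodes the major vault protein, with a slope of -1.16 for each 100 g (limma, adjusted p = 0.094). No gene passed with the replicate number as a block, in edgeR, with a pseudocount of 2 or with any 1 sheep left out other than high diet replicates 2 and 6. The slope of PPM1K was -0.23 (standard error 0.17) in well-fed and -0.37 (standard error 0.17) in underfed sheep, and the slopes of the diets did not differ beyond their error (limma interaction, adjusted p = 0.79). With testis weight as a covariate the diet difference of PPM1K was 0.82 on the log2 scale (standard error 0.23), against 1.20 without it. The weight was measured after the diets, so it is not independent of them.

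Apoptotic germ cells per tubule, counted by the study in tissue sections, gave the relation with the smallest p. In underfed sheep PPM1K and this count gave r = 0.79 (exact permutation p = 0.015, adjusted p = 0.18, n = 8) and rho = 0.90 (exact permutation p = 0.0046, adjusted p = 0.082, n = 8). With the 2 most extreme sheep left out, r was 0.81 (exact permutation p = 0.053, n = 6). In well-fed sheep r was -0.52 (exact permutation p = 0.19, adjusted p = 0.48, n = 8). Over both diets r was 0.66 (permutation p = 0.030, adjusted p = 0.18) and rho 0.47 (permutation p = 0.11, adjusted p = 0.33), and r was 0.38 without the 2 most extreme sheep, so the pooled relation rested on them. None of these had an adjusted p under 0.05, the threshold used for trait relations, on the log2 scale. The opposite signs in the 2 diets did not differ by the test of the difference itself, whose size was 0.86 per SD of the trait (standard error 0.62, limma interaction adjusted p = 0.40). On unlogged TMM-scaled CPM the relation did pass, with r = 0.79 over both diets (permutation, adjusted p = 0.040) and r = 0.84 in underfed sheep (exact permutation, adjusted p = 0.032). On that scale the SD of PPM1K was 7.90 in underfed and 1.87 in well-fed sheep, so the r over both diets mostly repeats that of underfed sheep. Low diet replicate 2 was the highest of its diet in both values, and leaving out sheep was not tried on this scale.

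The other traits gave weaker relations over 16 sheep with diet means removed. The r was -0.43 for the volume of seminiferous epithelium (permutation p = 0.13, adjusted p = 0.45), the tissue in which sperm form. It was -0.25 for tubule diameter (permutation p = 0.40, adjusted p = 0.59) and 0.26 for the change in scrotal circumference (permutation p = 0.31, adjusted p = 0.56). It was 0.24 for sperm number per testis (permutation p = 0.50, adjusted p = 0.59). The last of these turned to -0.34 without low diet replicate 2, and that for tubule diameter to 0.027 without its 2 most extreme sheep, so neither had a settled sign. The volume of epithelium kept its sign, at -0.48 without its 2 most extreme sheep.

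**Figure D3:**
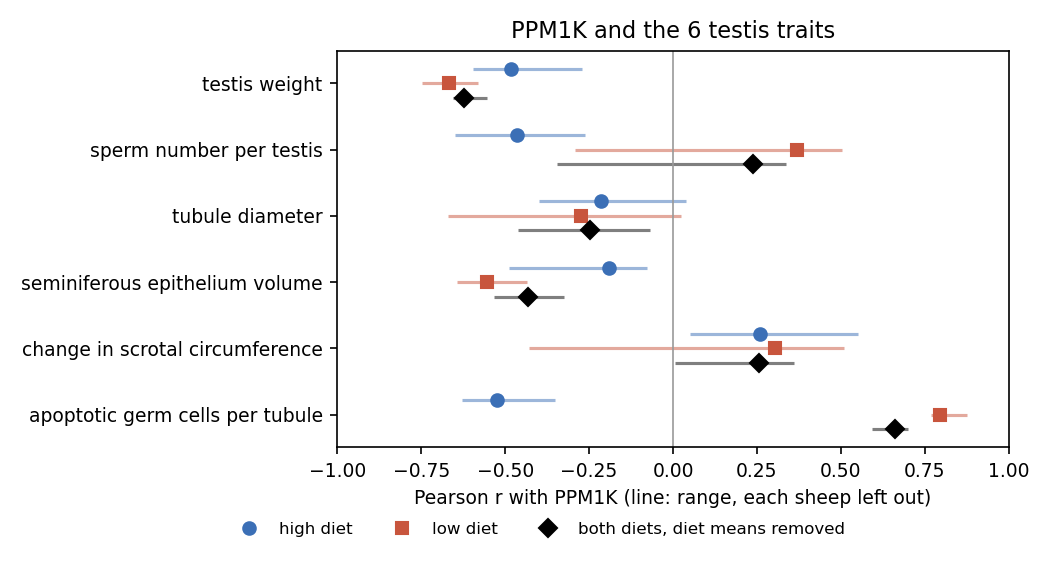
Pearson's r of PPM1K with 6 traits of the sheep, over both diets with diet means removed (n = 16) and within each diet (n = 8). Testis weight and epithelium volume lie below 0 in every grouping, and apoptotic germ cells lie at 0.79 in underfed and at -0.52 in well-fed sheep.

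Most markers of testis cells that had an identifier also differed by diet, and their part in the PPM1K difference was not tested. Of 53 markers listed, 16 had an identifier, and none was at 0 in any library. In underfed sheep 7 were called higher and 8 lower, where 76.7% of all genes with a symbol were called and 49.7% called higher. The identifiers came only from the study's own lists of differing genes. The counts are therefore not independent evidence that a cell type changed. The summed level of 4 of 9 markers of Sertoli cells, the supporting cells of the tubule (WT1, GATA4, CLDN11 and FSHR), was 100.1 to 134.6 CPM in well-fed and 168.7 to 498.5 CPM in underfed sheep. The summed level of 2 of 4 markers of peritubular muscle cells (MYH11 and DES) was 46.6 to 255.1 CPM and 119.2 to 514.8 CPM. PTPRC, the 1 of 5 leukocyte markers with an identifier, was 10.9 to 33.6 CPM and 19.3 to 59.5 CPM. The ranges of the Sertoli sum did not overlap between diets, whereas the peritubular and PTPRC ranges did. Taken singly, FSHR was the only Sertoli marker without overlap, and WT1, GATA4 and CLDN11 overlapped. Of all genes tested, 0.466% had every underfed sheep above every well-fed sheep. That share is not matched to markers taken from lists of differing genes, nor to a sum of genes, so no rarity is read from it.

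The germ cell markers with an identifier went the other way. The summed level of 5 of 7 spermatocyte markers was 534.4 to 2133 CPM in well-fed and 164.0 to 1070 CPM in underfed sheep, and that of 3 of 10 spermatid markers 429.2 to 757.5 CPM and 191.6 to 582.5 CPM. STAR, which carries cholesterol into mitochondria for steroid synthesis in Leydig cells and is the 1 of 6 Leydig markers with an identifier, was 16.02 to 73.0 CPM and 6.71 to 27.8 CPM. No marker of endothelial cells, spermatogonia or red cells had an identifier.

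Set against these sums, the diet difference in PPM1K depended on the sum used. Divided by the peritubular sum, PPM1K had a ratio of underfed to well-fed means of 0.978, and no underfed sheep was above every well-fed sheep. Divided by the Sertoli sum the ratio was 1.32, with 4 of 8 underfed sheep above every well-fed sheep, and divided by PTPRC it was 1.33, with 3 of 8. Divided by the spermatocyte, spermatid and Leydig sums it was 7.38, 4.91 and 6.98. The Sertoli markers differed in their own ratio of underfed to well-fed means, so the 1.32 depends on which of them dominates the sum. Their own ratio was 1.87 for FSHR, 2.36 for CLDN11, 2.60 for WT1 and 3.25 for GATA4. In well-fed sheep the median of GATA4 was 3.88 CPM, below the filter of 5 CPM, and its lowest level 0.77 CPM (14 reads). Within diets, the r of PPM1K with the peritubular sum was 0.73 in well-fed and 0.77 in underfed sheep (n = 8 each). That sum is mostly MYH11, which gave 0.74 and 0.76, whereas DES gave 0.17 and 0.83. For PTPRC r was 0.45 and 0.87, for the Sertoli sum -0.28 and 0.25, and for the spermatid sum -0.48 and -0.49. The members of the Sertoli sum were unlike, with r of 0.49 and 0.70 for WT1 and 0.46 and 0.64 for GATA4. It was 0.0015 and 0.49 for FSHR and -0.49 and 0.086 for CLDN11, the most abundant of the 4. Low diet replicate 1 weighed on the r of the underfed sheep. Without it r was 0.50 for the peritubular sum, 0.88 for PTPRC, -0.08 for the Sertoli sum and -0.05 for the spermatid sum. The sheep share the same library for both values, and these r are a description.

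The genes of branched-chain amino acid breakdown could be followed only in part. Of 33 listed genes 5 had an identifier, and none of these belongs to the BCKDH complex that PPM1K acts on, to its kinase BCKDK, to the transaminases, or to the leucine and valine branches. Of the 5, 4 were called higher in underfed sheep and none lower, with a median log2 difference of 0.65, against 0.01 over all tested genes. This count is read against the 49.7% called higher and the 76.7% called in either direction among all genes with a symbol, and the symbols come from a list the study chose on these samples, so the count is not independent evidence of a direction.

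Of the 5 genes, 3 encode transporters. SLC7A5 and SLC3A2 are the light and heavy chains of a carrier that brings large neutral amino acids, the branched-chain ones included, into cells. SLC7A5 was 6.94 ± 7.99 CPM in well-fed and 22.6 ± 15.8 CPM in underfed sheep (SD, n = 8 each), with a log2 difference of 1.75 (standard error 0.53, limma adjusted p = 0.047). Its groups overlapped widely, with 3 of 8 underfed sheep above every well-fed sheep, and the call was lost without low diet replicate 6 (limma adjusted p = 0.104). In well-fed sheep its median was 2.81 CPM, below the filter of 5 CPM, and its lowest level 0.33 CPM (6 reads). The size of its log2 difference depended on the pseudocount, at 1.91 with 0.5 and 1.53 with 2. SLC3A2 was 48.8 ± 16.998 and 82.4 ± 17.5 CPM, with a log2 difference of 0.64 (standard error 0.20, limma adjusted p = 0.051), and 7 of 8 underfed sheep were above every well-fed sheep. Its call was lost without high diet replicate 5 (limma adjusted p = 0.107) or low diet replicate 6 (0.112). SLC7A8, the light chain of a related carrier, was 7.82 ± 3.67 and 19.3 ± 6.11 CPM, with a log2 difference of 1.12 (standard error 0.23, limma adjusted p = 0.019). Here 6 of 8 underfed sheep were above every well-fed sheep, and the call held with any 1 sheep left out.

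Downstream of the BCKDH step there were 2 genes. PCCB, the beta subunit of propionyl-CoA carboxylase, which takes up the propionyl-CoA left by isoleucine and valine, rose from 32.1 ± 5.99 to 61.1 ± 26.6 CPM (SD, n = 8 each). Its log2 difference was 0.65 (standard error 0.23, limma adjusted p = 0.073), and the call was lost with DESeq2 size factors (limma adjusted p = 0.118) and with no filter on low genes (0.1002). It was also lost without high diet replicate 1, 5 or 6 or low diet replicate 2, 3, 4 or 6, each in turn (limma adjusted p from 0.1002 to 0.131). HSD17B10, a mitochondrial dehydrogenase of the isoleucine branch, did not pass, at 17.6 ± 3.74 and 33.0 ± 19.0 CPM with a log2 difference of 0.57 (standard error 0.25, limma adjusted p = 0.128). It passed on library totals (limma adjusted p = 0.066), in edgeR (0.091), in DESeq2 (0.058) and without low diet replicate 1 (limma, 0.093).

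Other phosphatases of the PP2C family did not all go the way of PPM1K. Of 19 listed, 3 had an identifier, 2 were called higher and none lower, with a median log2 difference of 0.69. This too is read against the 49.7% called higher among genes with a symbol. TAB1, a family member without phosphatase activity that activates the kinase TAK1, was 4.68 ± 3.37 and 10.9 ± 4.47 CPM, with a log2 difference of 1.08 (standard error 0.33, limma adjusted p = 0.048). Its call was lost without high diet replicate 5 (limma adjusted p = 0.102) or low diet replicate 6 (0.109). Its median in well-fed sheep was 3.33 CPM, below the filter of 5 CPM. PHLPP2, which removes an activating phosphate from AKT, was 22.7 ± 9.61 and 40.4 ± 13.0 CPM, with a log2 difference of 0.69 (standard error 0.24, limma adjusted p = 0.071). Its call was lost without high diet replicate 1, 5, 6 or 8 or low diet replicate 4, 6 or 8, each in turn (limma adjusted p from 0.122 to 0.150). PPM1A, an abundant phosphatase of SMAD and stress kinase signalling, was the gene of the 3 that did not pass, at 469.9 ± 161 and 331 ± 97.8 CPM (log2 difference -0.67, standard error 0.27, limma adjusted p = 0.109). Its adjusted p was under the threshold in edgeR (0.091), in DESeq2 (0.065) and without high diet replicate 2, 3 or 7 or low diet replicate 1 or 7, each in turn (limma adjusted p from 0.059 to 0.094).

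Pyruvate dehydrogenase is a sister complex of BCKDH and is switched by phosphate in the same manner. Of 11 listed genes of the pyruvate and oxoglutarate dehydrogenases, 1 had an identifier. It was PDPR, the regulatory subunit of pyruvate dehydrogenase phosphatase, called higher in underfed sheep with a log2 difference of 1.22 (standard error 0.43, limma adjusted p = 0.072). Its call was lost in edgeR (quasi-likelihood, adjusted p = 0.119), with no filter on low genes (limma adjusted p = 0.113) and without high diet replicate 1, 5, 6 or 8 or low diet replicate 4, 6 or 8, each in turn (limma adjusted p from 0.121 to 0.147). Of 6 listed genes for regulators of this metabolism and for the substrate ACLY, 2 had an identifier and both were called higher, where 49.7% of all genes with a symbol were called higher. PPARA, a nuclear receptor for fatty acids, had a log2 difference of 0.97 (limma adjusted p = 0.046), and SREBF1, a transcription factor of lipid synthesis, of 1.49 (limma adjusted p = 0.044). The median in well-fed sheep was 2.87 CPM for PPARA, 4.73 for SREBF1 and 4.04 for PDPR, below the filter of 5 CPM. These genes thus entered the test mostly through underfed libraries. PPARA no longer met the filter when certain single sheep were left out, so its call could not be tried there.

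**Figure D4:**
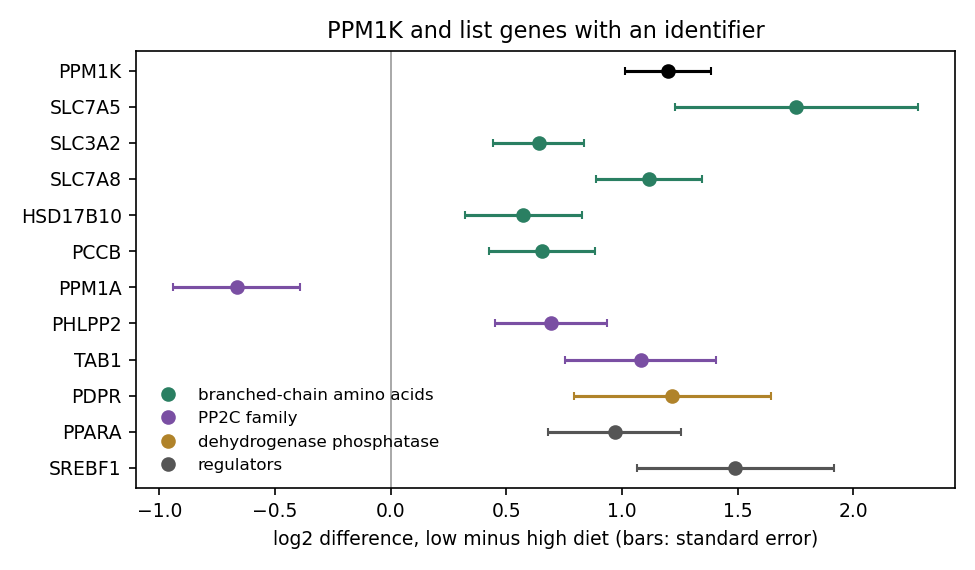
Log2 difference, underfed minus well-fed, with its standard error for PPM1K and the genes with an identifier in the lists of branched-chain, PP2C, dehydrogenase and regulator genes, cell type markers not included. PPM1K lies at 1.20, SLC7A5 is the highest at 1.75, and PPM1A is the only gene plotted below 0, at -0.67.

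Sheep by sheep, these genes followed PPM1K only loosely. With diet means removed, r with PPM1K over 16 sheep ran from 0.04 for HSD17B10 to 0.49 for SLC3A2 among the branched-chain genes, and was 0.54 for TAB1 and -0.38 for PPM1A. With testis weight as a covariate none of these listed genes kept its call, and no gene at all was called for diet (limma), although 544 had an unadjusted p under 0.05.

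Of the genes nearest to PPM1K in the RefSeq annotation of a later sheep assembly (ARS-UI_Ramb_v3.0), ABCG2, PKD2 and SPP1 follow on one side, and PKD2 was the only one with an identifier. PKD2, which encodes a cation channel of cilia, was 17.3 ± 3.81 and 32.6 ± 8.72 CPM (SD, n = 8 each), with a log2 difference of 0.70 (standard error 0.16, limma adjusted p = 0.022). Its r with PPM1K was 0.42 in well-fed and 0.67 in underfed sheep. ARHGAP36, INSR, LRRC8D and TMEM2, which stood in the same earlier list as PPM1K, had log2 differences of 1.23, 1.53, 0.97 and 1.01. Their r with PPM1K with diet means removed was 0.61, 0.63, 0.42 and 0.44.

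The genes whose levels were most like those of PPM1K from sheep to sheep were found by Pearson's r over 16 libraries with diet means removed. Of 11147 other genes, 9 (0.0807%) had an r above 0.8. The 8 with the highest r included CCBL1 (r = 0.87), an aminotransferase of the kynurenine pathway, EPB41 (r = 0.86), a protein of the membrane skeleton, and PHLDB2 (r = 0.85), a protein of the cell cortex. They also included ILVBL (r = 0.83), an enzyme related to bacterial acetolactate synthase, SCUBE2 (r = 0.82), a secreted protein that helps release hedgehog ligands, and JAKMIP1 (r = 0.81), which binds microtubules. The remaining 2, ENSOARG00000004315 among them, had no symbol and an r of 0.81 each.

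Within each diet r was positive for all of these genes. They were chosen by r over the same sheep, so this sign is largely set by the choice and is no support. ILVBL had r = 0.78 in well-fed and r = 0.96 in underfed sheep, and CCBL1 had r = 0.89 and r = 0.87. The least even was ENSOARG00000004315, with r = 0.18 and r = 0.99. Low diet replicate 1, the lowest of the underfed sheep in PPM1K, carried part of the likeness. Without it r was 0.78 for CCBL1, 0.82 for EPB41, 0.75 for ILVBL and 0.68 for ENSOARG00000004315. CCBL1 (log2 difference 1.06), PHLDB2 (1.02), ILVBL (1.00), SCUBE2 (1.03), JAKMIP1 (0.96) and EPB41 (0.80) were all called higher in underfed sheep (limma adjusted p = 0.016, 0.016, 0.032, 0.019, 0.022 and 0.055). The call of EPB41 was lost without high diet replicate 1 (limma adjusted p = 0.107), low diet replicate 4 (0.115) or low diet replicate 6 (0.102). These calls are of genes with a symbol, of which 49.7% were called higher among all tested. Of the most like genes without a symbol, ENSOARG00000004315 was not called (log2 difference 0.58, limma adjusted p = 0.106). The other was called higher (1.25, limma adjusted p = 0.016).

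The 4 genes with the lowest r had no symbol. The first of these, ENSOARG00000017646, had r = -0.88, with -0.68 in well-fed and -0.93 in underfed sheep, and a log2 difference of -0.27 that did not pass (limma adjusted p = 0.33). On library totals its r was -0.67, whereas that of CCBL1 was 0.91, so the values opposite to PPM1K depended more on the scaling. In a fit of every gene on PPM1K with diet as a term, no gene had a slope that passed (limma, smallest adjusted p = 0.326), and 1567 had an unadjusted p under 0.05. The likeness is therefore a ranking and not a set of tested relations.

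**Figure D5:**
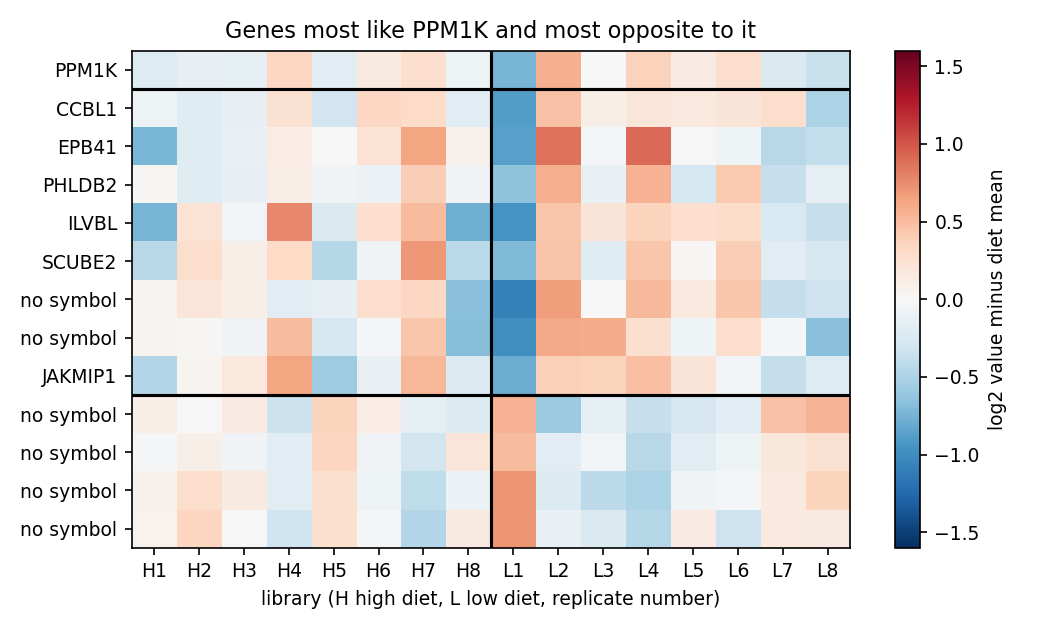
Deviation from the diet mean, on the log2 scale, of PPM1K, the 8 genes most like it and the 4 most opposite to it in each of the 16 sheep. Low diet replicate 1 is the lowest of the underfed sheep in PPM1K (-0.74) and low diet replicate 2 the highest (0.57).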

How the data were processed

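Per the labels and the methods of the study, the authors sequenced paired-end testis libraries (made with a stranded kit, per the labels), aligned the reads to OAR3.1 with TopHat2 2.0.10 and counted them on Ensembl genes with HTSeq (its strand setting is not given in the sources used here). The authors deposited CPM for each sheep, divided by the library total. Every value was a whole multiple of 1 read (tolerance 0.01 of a read, 100% of values), so reads were recovered.

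TMM factors (edgeR 4.0.16) were computed on the filtered genes and log2(CPM divided by the factor + 1) was fitted with limma 3.58.1 in R 4.3.3, after the analysis was tested on simulated data. Count tests (edgeR, DESeq2 1.42.0) on recovered reads were alternatives only. Trait relations used SciPy 1.17.1, with all 40320 exact pairings in a diet and 100000 resamples within diets over both. Alternatives covered scaling, pseudocount, filter, threshold, testis weight, the replicate number as a block and leaving out each sheep. Same-numbered sheep did not deviate together (2 of 8 correlations over 0.1), so the numbers were not taken as pairs.

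The gene and all lists were chosen with earlier results of these data known. Genes named are PPM1K, every listed gene with an identifier, the 8 most like and 4 most opposite genes, and annotated neighbours. MVP was named after its values were seen. Columns of the authors' own comparisons were not used.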

Additional observations from a re-analysis of the deposited data

Results flagged for a closer look

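Among 34 groups of 8 sheep examined, 2 held a sheep far from the others by Dixon's criterion, the gap to the nearest sheep over the range of the group, about what chance gives, which is 1 in 20 groups. In SLC7A8 low diet replicate 6 lay at 32.9 CPM, with the nearest underfed sheep at 21.0 and the lowest at 13.3 CPM, a gap over range of 0.605. In HSD17B10 low diet replicate 7 lay at 75.6 CPM, with the nearest at 41.5 and the lowest at 16.9 CPM, a gap over range of 0.581. PPM1K itself had no such sheep in either diet.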

How the results depend on the processing

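The log2 difference of PPM1K was above 0 under every alternative tried. It was 1.12 with DESeq2 size factors, 1.23 and 1.14 with pseudocounts of 0.5 and 2, 1.20 with the replicate block, 1.31 in edgeR (chosen after seeing the data) and 0.82 with testis weight as a covariate, a drop beyond the spread set as the limit. Its slope on testis weight ran from -0.53 (replicate block) to -0.32 (alternatives chosen after seeing the data), and from -0.46 to -0.27 with each sheep left out.

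The number of genes called, 1808, was 1067 with the replicate block, 837 at an adjusted p under 0.05, 0 with testis weight as a covariate, 1673 in edgeR and 2159 in DESeq2. It ran from 674 to 2684 with each sheep left out, with 1018, 836, 930 and 865 without high diet replicates 1, 5, 6 and 8 and 843 and 674 without low diet replicates 4 and 6. On library totals 1563 genes were higher and 455 lower, against 1204 and 604. The number of branched-chain genes called, 4, was 2 with the replicate block, 2 at an adjusted p under 0.05 and 0 with testis weight as a covariate. It ran from 1 to 5 with each sheep left out, at 2 without high diet replicate 5 and 1 without low diet replicate 6. The block also ended the calls of SLC3A2 (limma adjusted p = 0.109), PCCB (0.151), PHLPP2 (0.149) and PDPR (0.103). With testis weight as a covariate the log2 difference of ENSOARG00000017646 turned to 0.092 from -0.27, neither of them past the threshold. As the numbers did not pair the sheep, a call lost under the block is not read as a weaker effect.

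With the 2 sheep of most extreme trait value left out, r turned to -0.51 for sperm number over both diets, -0.63 for sperm number in underfed sheep, 0.027 for tubule diameter over both diets, 0.53 for tubule diameter in well-fed sheep and -0.19 for scrotal circumference in underfed sheep. Without low diet replicate 2, r for sperm number was -0.34. On unlogged TMM-scaled CPM, r for apoptotic germ cells was 0.79 over both diets and 0.84 in underfed sheep, both past the threshold. The r over both diets there mostly repeats that of underfed sheep. Over both diets with each sheep left out, r ran from -0.66 to -0.55 for testis weight, 0.59 to 0.70 for apoptotic germ cells, -0.53 to -0.32 for epithelium volume, -0.46 to -0.07 for tubule diameter, -0.34 to 0.34 for sperm number and 0.0070 to 0.36 for scrotal circumference. The cause of these changes was not tested. The lowest PPM1K count was 93 reads, and the spread between the 8 sheep of a diet exceeded counting error.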
